A study of Mus musculus with 20 samples.

Results

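The genes described are the ligands, receptors and Smads of the transforming growth factor beta (TGF-beta) pathway: Tgfb1, Tgfb2, Tgfb3, Tgfbr1, Tgfbr2, Tgfbr3, Smad2, Smad3, Smad4 and Smad7. They were chosen by gene symbol. All 10 were among the 37561 genes shared by the deposited tables, and all 10 were among the 13322 genes whose log2 normalized count was typically 4 or more, which were tested. The cells were mouse ESD3 embryonic stem cells (strain 129s2/SvPas), maintained on primary mouse embryo fibroblast feeders and differentiated as spherical neural masses toward dopaminergic neurons. The control line carried a retroviral short hairpin RNA against luciferase and the HPRT-knockdown line one against HPRT, the purine salvage enzyme. RNA-seq covered 20 libraries, 1 of each line on each of 10 days (daily up to day 4, then every other day from day 6 to day 14). RNA was pooled within a line and time point before sequencing. Each line was made 1 time, so a difference between the lines cannot be told apart from a difference between these transduced populations.

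TGF-beta ligands are secreted in a latent form and bind a complex of the type 2 receptor Tgfbr2 and the type 1 receptor Tgfbr1. Tgfbr3, also called betaglycan, presents the ligands, Tgfb2 above all. The active type 1 receptor phosphorylates Smad2 and Smad3, which enter the nucleus with the shared partner Smad4, and Smad7 is a target gene that inhibits the receptor. In midbrain cultures the ligands are known for their role in the induction and survival of dopaminergic neurons, and in many tissues for the control of proliferation and matrix genes.

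The upstream sequences of Tgfb1, Tgfb2 and Tgfbr1 are shown because these genes differed between the lines and had a RefSeq promoter. The RefSeq promoter table of build GRCm38.p6 held 5 of the 10 genes. Each run is the 250 bases before the annotated start (for Tgfbr1 the outermost that the table lists), 5′ to 3′ on the gene's strand. Tgfb1 lies at chr7:25686752-25687001 on the plus strand, Tgfb2 at chr1:186705990-186706239 on the minus strand and Tgfbr1 at chr4:47352972-47353221 on the plus strand. Capitals mark matches, on either strand, to TATAAA (the TATA box), CACGTG (an E-box), GGGCGG (the GC box of Sp1-type factors), CCAAT (the CCAAT box), CAGACA (the core of the CAGA box bound by Smad3 and Smad4) and TGACGTCA (the cAMP response element).
Tgfb1: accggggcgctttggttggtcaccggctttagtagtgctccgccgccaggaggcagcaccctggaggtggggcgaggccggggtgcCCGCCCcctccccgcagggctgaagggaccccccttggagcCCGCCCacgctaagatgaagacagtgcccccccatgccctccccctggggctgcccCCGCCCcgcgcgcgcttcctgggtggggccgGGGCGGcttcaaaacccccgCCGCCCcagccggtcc
Tgfb2: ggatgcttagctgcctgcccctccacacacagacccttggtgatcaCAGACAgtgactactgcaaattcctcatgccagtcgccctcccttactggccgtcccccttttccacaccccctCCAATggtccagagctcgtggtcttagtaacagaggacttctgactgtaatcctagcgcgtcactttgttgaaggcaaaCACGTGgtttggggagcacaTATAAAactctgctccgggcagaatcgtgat
Tgfbr1: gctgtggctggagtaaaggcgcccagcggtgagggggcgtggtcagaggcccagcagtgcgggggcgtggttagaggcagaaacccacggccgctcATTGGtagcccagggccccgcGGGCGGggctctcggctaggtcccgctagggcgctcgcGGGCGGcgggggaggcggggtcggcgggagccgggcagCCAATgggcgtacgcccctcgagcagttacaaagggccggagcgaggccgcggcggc
The Tgfb1 window was 75.2% G and C and held 5 GC boxes and no other of these motifs. The Tgfb2 window was 53.6% G and C, with a TATA box 31 bases and an E-box 51 bases before the start, a CCAAT 130 bases and a CAGACA 204 bases before it. The Tgfbr1 window was 74.8% G and C and held 2 GC boxes and 2 CCAAT matches. None of the matches overlapped another, apart from the E-box, whose letters read the same on both strands. Over all 32851 windows of this length, 12.4% held the TATA box, 6.02% the E-box, 32.7% the GC box, 33.8% CCAAT, 17.1% CAGACA and 1.55% the cAMP response element, and the median G and C content was 52.4%. These letters describe the windows and were not tested as sites.

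Each deposited table holds the log2 values of 2 libraries around their mean, so a table gives a log2 ratio. All ratios below are log2 of HPRT knockdown over control on the same day, and errors are standard deviations over 9 days, without day 6. That day was also omitted from the pathway analysis of the study. Days are successive collections of 1 line and not independent cultures, so p-values measure only the spread between days. Read counts of 9 of the 10 genes could be worked back from 27 of the 28 tables, which for these genes differed from each other by at most 6.75e-07 on the log2 scale. The table of control days 3 and 4 was left out of this step, since it departs from the others. They came out in 49ths of a read, and each gene had from 58.0 to 2468 reads per library. For Tgfb2 the 27 tables disagreed by up to 9.85e-03 and no reads were recovered. Its typical log2 normalized count was at least 8. The depth of the libraries relative to each other lay between 0.794 and 1.52, with the control library of day 3 the deepest. Hprt itself, the target of the hairpin, differed on each day, with 562 to 928 normalized reads in the control and 20.7 to 150 in the knockdown over the 9 days, a 16.0-fold difference on average (limma adjusted p = 1.23e-05, lower on 9 of 9 days).

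All 3 ligands were higher in the HPRT-knockdown line, Tgfb1 by 1.59-fold, Tgfb2 by 1.74-fold and Tgfb3 by 1.72-fold on average. Among the receptors Tgfbr1 was lower, at 0.700 times the control, and among the Smads Smad2 was lower, at 0.824 times the control. In all, 5 of the 10 genes passed the test, where 52.8% of all 13322 genes did, 26.5% higher and 26.2% lower. The number of members called was thus near the background, and the median size of their mean ratios, 0.19, was below that of all genes, 0.35. The study names Tgfb2, Tgfb3 and Tgfbr1 on these samples, so their direction is not independent evidence.

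The median of astrocyte and radial glia markers mostly had the signs of the ligands, a comparison picked after the values were seen. The median ratio of the 8 markers was above 0 on each of the 9 tested days, between 0.79 and 1.88, and was -0.62 on day 6. Single markers differed, as Fabp7 was higher on 4 tested days and lower on 5, and S100b was at 3.75 on day 6. Tgfb1 and Tgfb2 had the sign of the marker median on 10 of 10 days, as 7.70% of 13314 tested genes other than the markers did. Tgfb3 had it on 9, where 19.9% had it on 9 or 10. Among the other members the count ran from 1 day for Smad2 to 6 for Tgfbr2 and Smad3. A match on 10 days only restates that a gene was above 0 on the tested days and below 0 on day 6. It does not show a link to these cells. Some signs of the ligands rested on small ratios. Tgfb1 was at 0.07 on day 4 and -0.12 on day 6, where the error from read counting was 0.12 to 0.26 per day. Tgfb2 was at 0.06 on day 14. The part of such cells in the ligand ratios was not tested.

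**Figure D1:**
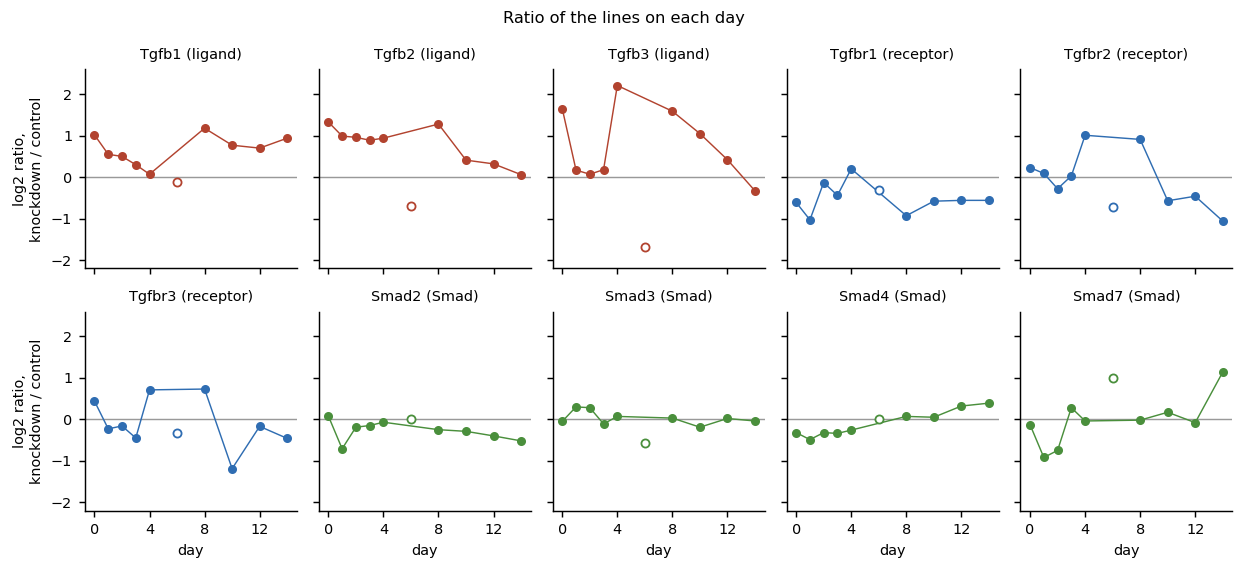
Log2 ratio of HPRT knockdown over control (vertical axis) on each day (horizontal axis) for the 10 genes, 1 point per pair of libraries. The open circle is day 6, which was not tested. Tgfb1 and Tgfb2 lie above 0 on all 9 tested days and below 0 on day 6.

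Tgfb1 (Gene ID 21803, NCBIM37 chromosome 7, 26472021 to 26490096, plus strand, exons of 2.56 kb) is the ligand best known from immune and fibrotic tissue. Daily ratios from day 0 to day 4 were 1.02, 0.55, 0.50, 0.30 and 0.07. From day 8 to day 14 it was 1.18, 0.77, 0.70 and 0.94. The knockdown library was thus higher on 9 of 9 days, least so on day 4. The mean was 0.67 ± 0.35 (limma adjusted p = 0.00105), and an exact two-sided permutation of the signs of the daily ratios gave p = 0.00391, the smallest that 9 days allow. Over all genes, 29.5% had the same sign on all 9 days. Among the members Tgfb1 and Tgfb2 did.

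The normalized reads of Tgfb1 ran from 70.0 to 238 in the control line, with a median of 108, and from 73.0 to 365 in the knockdown, with a median of 183. The ranges of the lines overlapped. Tgfb1 was highest on day 1 and lowest on day 4 in each line, with steps of 2.77-fold up and 2.46-fold down around day 1 in the control and of 2.10-fold and 2.66-fold in the knockdown. Tgfb1 was the member with the fewest reads, and the counting error of a single day's ratio was 0.12 to 0.26. Counting errors here cover reads only, since PCR copies are not independent molecules. When the lines were compared over days without pairing by day, the mean ratio was the same and the adjusted p was 0.0656.

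Tgfb2 (Gene ID 21808, chromosome 1, 188447065 to 188529871, minus strand, exons of 4.84 kb) is the ligand that depends most on Tgfbr3 for binding. Its ratio began at 1.33 (day 0), was 0.99, 0.96, 0.89 and 0.94 on days 1 to 4, and reached 1.28 on day 8. Later it was 0.41, 0.32 and 0.06 (days 10, 12 and 14). The early days were close to each other at 1.02 ± 0.18 (SD, n = 5 days) and the late days lower and wider at 0.52 ± 0.53 (n = 4 days). The mean of the 9 days was 0.80 ± 0.44 (limma adjusted p = 0.00107).

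Tgfb3 (Gene ID 21809, chromosome 12, 87397694 to 87419991, minus strand, exons of 3.38 kb) is the ligand known from palate closure and from neuron survival. Daily ratios from day 0 to day 4 were 1.65, 0.17, 0.07, 0.18 and 2.21, and those from day 8 to day 14 were 1.59, 1.05, 0.42 and -0.33. The mean of 0.78 ± 0.87 (limma adjusted p = 0.0306) rested on days 0, 4, 8 and 10. Without any 1 of these 4 days the adjusted p lay between 0.0607 and 0.0712, with day 6 kept it was 0.197, and an exact permutation of the signs gave an adjusted p of 0.0540.

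The control line moved more than the knockdown in Tgfb3. Its normalized reads were 108 on day 4 and 1155 on day 14, a 10.7-fold range, against 298 to 876, a 2.94-fold range, in the knockdown. The control stood 3.47-fold lower on day 4 than on day 3, 10.0-fold higher on day 6 than on day 4, and 4.14-fold lower on day 8 than on day 6. The counting error of a day's ratio was at most 0.16, well below the SD over days. The 2 paths to the control step from day 3 to day 4 differed by 0.097 in Tgfb3 and by 0.009 to 0.103 over the 10 genes.

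**Figure D2:**
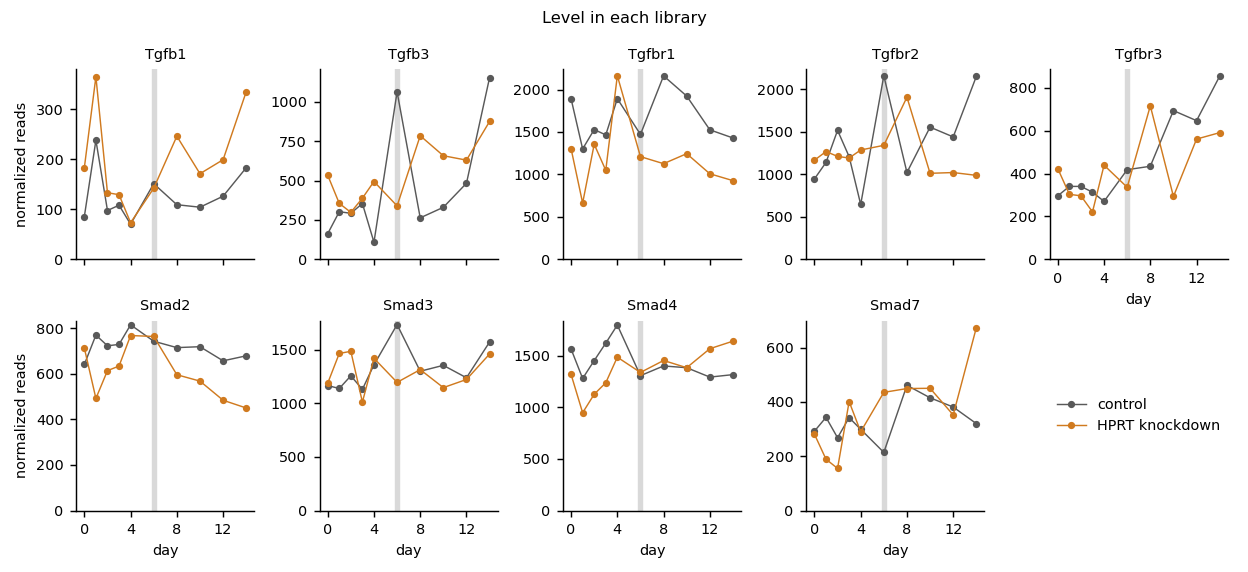
Normalized reads (recovered reads divided by the depth of the library relative to the others, vertical axis from 0) on each day (horizontal axis) in the control (grey) and the HPRT-knockdown line (orange), 1 library per point. The grey band is day 6. Tgfb2 is absent because its reads were not recovered. Tgfb3 in the control stands at 108 on day 4 and 1064 on day 6.

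The receptors differed from each other. Tgfbr1 (Gene ID 21812, chromosome 4, 47366094 to 47427803, plus strand, exons of 6.53 kb), the kinase that phosphorylates Smad2 and Smad3, stood below the control on 8 of 9 days. Over days 0 to 4 its ratios were -0.61, -1.03, -0.13, -0.44 and 0.20. From day 8 to day 14 it was -0.93, -0.58, -0.56 and -0.56. The mean was -0.51 ± 0.38 (limma adjusted p = 0.00560). Normalized reads ran from 1300 to 2161 in the control (median 1528) and from 662 to 2163 in the knockdown (median 1126), so the knockdown's highest library, day 4, reached the control's highest.

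Tgfbr2 (Gene ID 21813, chromosome 9, 115993415 to 116084383, minus strand, exons of 8.09 kb), which binds the ligand first, did not pass the test, with a mean of -0.01 ± 0.67 and an adjusted p of 0.968. The 95% interval of its mean, -0.53 to 0.51, spans folds from 0.693 to 1.42. Single days ranged widely. The ratio was between -0.28 and 0.23 on days 0 to 3, reached 1.01 on day 4 and 0.91 on day 8, and was -0.57, -0.46 and -1.06 over days 10 to 14. Normalized reads in the control ran from 644 on day 4 to 2157 on day 6, while the knockdown held between 986 and 1339 on all days but day 8, where it had 1905.

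Tgfbr3 (Gene ID 21814, chromosome 5, 107535589 to 107718648, minus strand, exons of 6.54 kb) did not pass the test either, with a mean of -0.09 ± 0.62 (limma adjusted p = 0.725, 95% interval -0.57 to 0.39). Its ratio was 0.71 on day 4 and 0.73 on day 8 and -1.19 on day 10. It was the only member to rise along the control line by the test of the slope, as described below.

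Fibroblast and mesenchymal markers moved from day to day beside these receptors, a comparison picked after the values were seen. Among the 12 markers, all past the filter, 1 (Pdgfra) was higher and 3 (Lum, Postn and Fap) were lower in the knockdown over the 9 days. Of all genes 26.5% were higher and 26.2% lower. The median mean ratio of the markers was -0.12. Their median ratio was 1.04 on day 4 and 0.69 on day 8, -0.73 on day 6, and -0.89 and -1.28 on days 10 and 12. Tgfbr2 and Tgfbr3 had the sign of that median on 9 of 10 days each. That count was reached or passed by 0.999% of 13310 tested genes other than the markers. Tgfbr1 shared the sign on 7 days, Tgfb3 and Smad2 on 6, Tgfb1, Tgfb2 and Smad3 on 5, Smad7 on 4 and Smad4 on 3, where the median gene shared 5. The summed normalized reads of the 6 fibroblast markers with recovered reads ran from 1606 to 7964 in the control and from 2137 to 3962 in the knockdown. In bulk RNA, fewer cells of a type and less RNA per cell cannot be told apart, and the part of such cells in the receptor ratios was not tested.

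Smad2 (Gene ID 17126, chromosome 18, 76401234 to 76465385, plus strand, exons of 3.55 kb), which carries the receptor's signal, stood below the control on 8 of 9 days. Its ratio was 0.08 on day 0, -0.71 on day 1, between -0.19 and -0.07 on days 2 to 4, and -0.25, -0.29, -0.40 and -0.52 on days 8 to 14. The mean was -0.28 ± 0.24 (limma adjusted p = 0.0193). Normalized reads were 641 to 815 in the control, with a median of 719, and 450 to 768 in the knockdown, with a median of 596. The control levels stayed within 1.27-fold over the days, the narrowest range of the recovered members. The counting error of 0.07 to 0.09 was close to the size of several single days' ratios, so days 0 and 4 alone could not show a difference.

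Smad3 (Gene ID 17127, chromosome 9, 63494574 to 63605801, minus strand, exons of 5.54 kb), the other receptor-activated Smad, showed no call, and its interval was narrow. The mean was 0.04 ± 0.17 (limma adjusted p = 0.684), with a 95% interval from -0.09 to 0.16, or folds of 0.938 to 1.12. Its largest ratio on a tested day was 0.30 on day 1. Normalized reads ran from 1132 to 1574 in the control and from 1013 to 1487 in the knockdown.

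Smad4 (Gene ID 17128, chromosome 18, 73798663 to 73863434, minus strand, exons of 3.71 kb), the shared partner, went from lower to higher in the knockdown. From day 0 to day 4 its ratios were -0.32, -0.49, -0.32, -0.34 and -0.26. From day 8 to day 14 they were 0.07, 0.05, 0.32 and 0.39. All 5 early days were thus below all 4 late days. Its mean over the course, -0.10 ± 0.32, did not pass the test (limma adjusted p = 0.431), where the early and late days had opposite signs.

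Smad7 (Gene ID 17131, chromosome 18, 75527183 to 75555589, plus strand, exons of 4.52 kb), the inhibitory Smad and a target of the pathway, had a mean of -0.04 ± 0.59 (limma adjusted p = 0.873, 95% interval -0.50 to 0.42). Its ratio was -0.92 on day 1 and -0.75 on day 2, between -0.13 and 0.28 on days 0, 3, 4, 8, 10 and 12, and 1.14 on day 14. Normalized reads in the knockdown were 155 on day 2 and 673 on day 14, against 268 and 320 in the control.

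**Figure D3:**
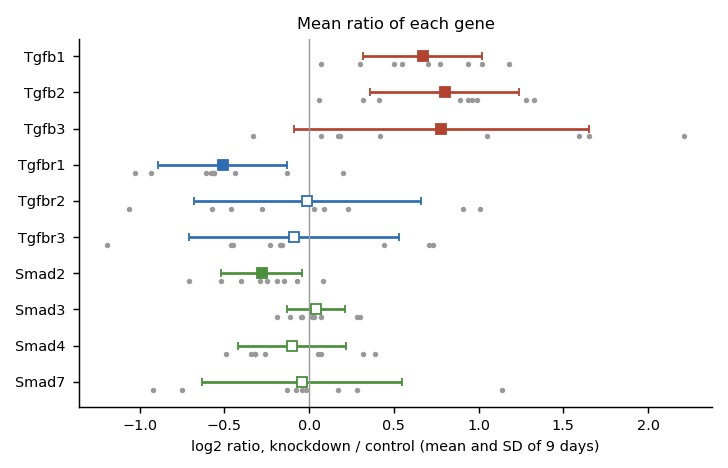
Mean log2 ratio of HPRT knockdown over control (squares) with the SD of 9 days (bars) and the ratio of each day (grey dots) for the 10 genes. Filled squares passed the limma test with an adjusted p under 0.05. The ligands stand at 0.67, 0.80 and 0.78 and Tgfbr1 at -0.51.

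Whether the difference between the lines changed over the course was tested as the slope of the ratio on day. Smad4 rose by 0.060 per day (SE 0.010, limma adjusted p = 0.0108) and Tgfb2 fell by 0.070 per day (SE 0.018, adjusted p = 0.0377). Of all genes, 7.71% rose and 6.66% fell by this test. The Smad4 slope stayed between 0.057 and 0.065 when any 1 day was left out, and was called each time. The Tgfb2 slope stayed between -0.077 and -0.058, but passed the threshold only when day 8 was the day left out, and without the other days its adjusted p lay between 0.0524 and 0.149. The slope of Smad7 was 0.080 per day with an adjusted p of 0.0914, and without day 14 it was 0.045.

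Within the control line Tgfbr3 rose by 0.098 per day (SE 0.017, limma adjusted p = 0.00238). Its normalized reads were 296 on day 0 and 855 on day 14. The slope joined all control steps, that from day 3 to day 4 included, which the reads left out. Joined through the knockdown steps and same-day ratios instead, the slope was 0.101 (limma adjusted p = 0.00161). In the control line 19.6% of all genes rose and 24.3% fell. The slope of Tgfb3, 0.119 per day, had an adjusted p of 0.0651, and it was 0.061 without day 14. Within the knockdown line Tgfb2 fell by 0.075 per day (SE 0.019, adjusted p = 0.0369) and Tgfb3 rose by 0.080 per day (SE 0.021, adjusted p = 0.0384), where 7.72% of all genes rose and 5.67% fell. Neither knockdown slope was secure, since each lost its call without any 1 of 7 of the 9 days, Tgfb2 at values of -0.106 to -0.064 and Tgfb3 at 0.069 to 0.097 over all 9 such fits. The knockdown slope of Smad7 was 0.096 per day with an adjusted p of 0.0546. A slope past the threshold in 1 line does not show that the lines differed, and of these genes the difference itself was called for Tgfb2 alone (Tgfb3 adjusted p = 0.642, Tgfbr3 adjusted p = 0.482).

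Day 6 gave the lowest ratio of each ligand, though no day of any member passed Dixon's test for an outlying value among 10. The ratios that day were -0.12 for Tgfb1, -0.69 for Tgfb2 and -1.68 for Tgfb3, each below the lowest of the other 9 days. Smad3, at -0.56, was the only other member outside its range. For 4 of 10 members the day 6 ratio thus fell outside the range of the other days, and for 44.1% of all genes it did. On day 6 the lines were at least 1.5-fold apart in 4 members, Tgfb2, Tgfb3, Tgfbr2 and Smad7, and in 25.2% of all genes. Smad7 was 2.00-fold higher in the knockdown that day. In the control line the day 6 library held the highest Tgfbr2 and Smad3 and the lowest Smad7 of the 10 days.

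Over the other 9 days the lines were at least 1.5-fold apart in 28 of 90 pairs of a member and a day, or 31.1%, against 36.5% of pairs over all genes. Tgfb2 was so on 6 days, Tgfb1 on 5, Tgfb3 on 4, and Smad3 and Smad4 on none. Between consecutive days of the control line 11 of 90 steps of the members were at least 2-fold, where 5.72% of steps of all genes were, and in the knockdown 9 of 90, where 9.35% were. Of the 11 control steps 7 led into or out of day 6, and of the 9 knockdown steps 3 did. The steps of all genes were not split by day, so these counts cannot be called particular to the members. Of the 11 control steps 4 were steps of Tgfb3. Smad2, Smad3 and Smad4 had no such step in either line.

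Levels per kilobase of exon allow 9 of the 10 genes to be ranked within a line, without Tgfb2, whose reads were not recovered. In the control line Smad4 was highest of these, with a median of 375 normalized reads per kilobase over the 10 days (344 to 484), and did not overlap the next gene. It was followed by Tgfbr1 at 234, Smad3 at 231, Smad2 at 203 and Tgfbr2 at 164, and these neighbours overlapped in range. Tgfb3 had 93.3, Smad7 73.2, Tgfbr3 57.9 and Tgfb1, the lowest of the 9, 42.5. In the knockdown Smad4 was again highest at 366 and Smad3 next at 229. Tgfb3 (152) stood just above Tgfbr2 (148) and Tgfb1 at 69.0 above Tgfbr3 at 58.0, and every pair of neighbours overlapped.

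The rest of the pathway was described by lists of genes. Of the activin and nodal branch, which signals through the same Smad2 and Smad3, 12 of 14 genes passed the filter and 6 were lower and 4 higher in the knockdown, where 26.2% and 26.5% of all genes were. Their median mean ratio was -0.64, and that of all genes was 0.01. The lowest were Lefty2, a nodal inhibitor, at -3.39 ± 2.43 (adjusted p = 0.00330), and Tdgf1, the nodal co-receptor, at -3.38 ± 2.40 (adjusted p = 0.00315). Nodal itself was at -3.33 ± 2.15 and lower on 9 of 9 days, but on day 6 it was at 1.20. The highest were Gdf1 at 1.90 ± 0.33 (adjusted p = 6.77e-06), whose transcript also carries Cers1 so that reads cannot be split between them, and Gdf11 at 1.01 ± 0.37. Inhba, a subunit of activin, was at 0.96 ± 0.71 (adjusted p = 0.00433) and Inhbb, another, at 0.45 ± 0.44. Counts at or below 1 had been set to 1 in the tables, so ratios of genes that low in a library are understated.

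Pluripotent-cell markers, like Nodal, Lefty2 and Tdgf1, had mean ratios below 0 over the 9 days. All 7 markers were lower in the knockdown over these days, with daily medians from -6.92 to -0.98. Their median on day 6 was 0.36. Nodal, Tdgf1, Lefty1, Lefty2 and Gdf3 are themselves transcripts of pluripotent cells, and the part of such cells in these ratios was not tested. Over all 13322 genes 26.5% were higher and 26.2% lower, the background for the counts of markers. Of the other lists, 5 of 7 neuron markers past the filter (Tubb3, Dcx, Stmn2, Nefl and Syt1) were lower and none higher. Of astrocyte and radial glia markers 7 of 8 were higher and none lower, and 3 of 8 oligodendrocyte markers were higher (Olig1, Olig2 and Cnp). Among endothelial markers 1 of 7 was higher (Flt1) and 3 were lower (Pecam1, Emcn and Egfl7), among 3 primitive endoderm markers none was called, and among 6 neural progenitor markers 1 was higher (Sox2) and 2 were lower (Pax6 and Hes5). Of the macrophage markers 5 of 6 were under the filter, and Cx3cr1 was 0 in every table. Among the neuron markers Tubb3 was at -1.88 and Dcx at -1.99, and Rbfox3, a marker of mature neurons, was under the filter.

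**Figure D4:**
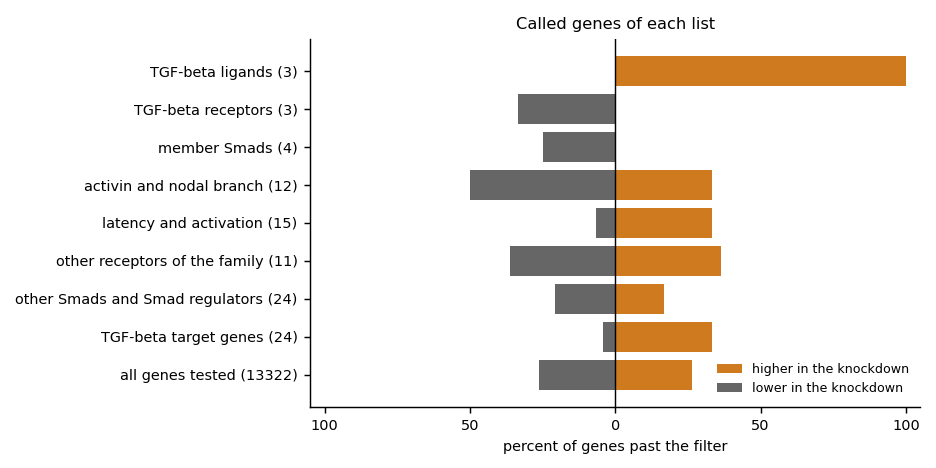
Percent of the genes of each list past the filter (numbers in brackets) that were higher (orange, to the right) or lower (grey, to the left) in HPRT knockdown by the limma test, with all 13322 genes at the bottom. The ligand bar reaches 3 of 3 to the right, and among target genes 8 of 24 were higher and 1 lower.

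Of 15 genes of ligand latency and activation 5 were higher and 1 lower, with a median of 0.28. Set beside 26.5% and 26.2% of all genes, the higher genes were near the background. Itgav, an integrin subunit that releases the ligand from its latent form, was at 1.26 ± 0.31 (adjusted p = 3.10e-05) and Ltbp3, a latent binding protein, at 1.07 ± 0.49 (adjusted p = 0.000419). Itgb8, the partner of Itgav, was at 0.78 ± 0.52, Fbn1, the microfibril protein, at 0.74 ± 0.57 and Furin, the protease that cleaves the ligand precursors, at 0.68 ± 0.20. The gene that was lower was Bgn, a matrix proteoglycan that binds the ligands, at -1.42 ± 0.79 (adjusted p = 0.000945).

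Other receptors of the family were called in both directions, 4 higher and 4 lower of 11, with a median of 0.36, beside the same 26.5% and 26.2% of all genes. Cd109, a co-receptor that dampens TGF-beta signaling, had the highest ratio, 2.48 ± 0.44 (adjusted p = 6.77e-06), and Bmpr2, a type 2 receptor of BMPs, was at 0.71 ± 0.42. Eng, endoglin, was lowest at -1.87 ± 1.02 (adjusted p = 0.000817), followed by Acvr2b, a type 2 receptor of activin, at -1.29 ± 1.00. Acvr1 (0.48 ± 0.19) and Bambi (0.41 ± 0.41) were the other higher genes, and Acvr2a and Acvr1b, both at -0.53, the other lower ones.

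Among other Smads and Smad regulators 4 were higher and 5 lower of 24, with a median of -0.13, where 52.8% of all genes were called in either direction. The BMP-activated Smad9 was at 1.31 ± 0.66 (adjusted p = 0.000570), the inhibitory Smad6 at 1.04 ± 0.63 (adjusted p = 0.00159), Pmepa1, a target that sequesters Smad2 and Smad3, at 0.72 ± 0.34 and Smad5 at 0.24 ± 0.12. Foxh1, the nodal partner of Smad2, was lowest at -2.07 ± 2.45 (adjusted p = 0.0355), and Tgif1, a Smad corepressor, was at -1.04 ± 0.43 (adjusted p = 0.000257). Usp15, Ep300 and Trim33 were lower at -0.50, -0.43 and -0.27.

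Of 24 target genes 8 were higher and 1 lower, with a median of 0.13, where 26.5% of all genes were higher and 26.2% lower. The share of higher genes was near the background. Ctgf, a matrix signal also induced by other pathways, was highest at 1.55 ± 0.55 (adjusted p = 0.000114) and Cyr61, of the same family, was at 0.98 ± 0.49 (adjusted p = 0.000634). Bhlhe40 was at 0.97 ± 0.45 and Cdkn2b, a cell cycle inhibitor and the lowest of the 8, at 0.68 ± 0.67. Ankrd1, the gene that was lower, was at -3.73 ± 2.86 (adjusted p = 0.00468). Collagen and smooth muscle targets that are also fibroblast genes gave no call, with Col1a1 at 0.18, Col1a2 at 0.10 and Col3a1 at -0.32.

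Slopes of the ratio were called in either direction for 6 of 84 further genes of these lists (7.14%). Of all 13322 genes 1914 were called in either direction, 7.71% rising and 6.66% falling. Ltbp4 rose by 0.08 per day and Fkbp1a, which binds the type 1 receptor, by 0.08. Inha fell by 0.16, Fbn1 by 0.10, Acvr2a by 0.06 and Acta2 by 0.19 per day. Within the control line 8 of 24 target genes and 6 of 15 latency genes rose and none fell, where 19.6% of all genes rose and 24.3% fell. The fibroblast markers rose there in 7 of 12 and fell in none. These lists share genes that rose, since Col1a2 and Col3a1 are also among the targets and Dcn among the latency genes.

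The genes whose daily ratios were nearest to those of a called member were found by the root mean square difference over the 9 days among 13322 genes. For Tgfb2 they were Ggcx at 0.12, Nos1ap at 0.19 and Fbxo10 at 0.20, where the median gene was 1.03 away. For Tgfbr1 they were H1fx at 0.18, Zik1 at 0.22 and Pafah1b3 at 0.23, and for Smad2 they were 2310003C23Rik at 0.07, Usp31 at 0.09 and Smg5 at 0.10.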

How the data were processed

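Libraries were sequenced for 50 cycles, aligned by ELAND within CASAVA 1.8.2 to mm9 and then counted in Avadis NGS, where DESeq normalization was applied, per the study's methods and the submitters' notes. The authors deposited 28 tables of 2 libraries each, as log2 values around the mean of the pair: 10 same-day tables and 9 consecutive-day tables per line. Each table was normalized separately, so values joined across days also join normalizations. Genes and lists were chosen with earlier results of these data known. The design had foreseen that counts might be given, and since the values are log2 the limma test was used.

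The filter, log2 normalized counts typically 4 or more, was read from the rounding step of the single-precision values. Of 350 genes with recovered reads, 95.1% fell on the same side of it by both. Reads were recovered by least squares over 27 tables (all but control day 3 to 4) as the smallest scale at which at least 19 of 20 libraries gave whole 49ths, for genes of up to 3265 reads. For Smad4 1 library missed the tolerance. Normalized reads used 1 median-ratio factor per library. Scripts were tested on simulated data. Total reads, sequencing lanes and strand were not used here, and no batch could be examined.

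Tests were limma 3.58.1 (lmFit, eBayes) in R 4.3.3 on per-day ratios or slopes over 9 days, with Benjamini-Hochberg adjustment over 13322 genes and a threshold of 0.05. Intervals of a mean are 95% intervals over the 9 days. Libraries were paired by day, from the labels. Deviations of both lines from their means correlated across genes with r from 0.120 to 0.454 on 8 days and 0.00749 on day 0. Named were all members, Hprt, the 2 highest and 2 lowest called genes of each list and any counted among 5 or fewer, and the 3 nearest genes of the called member with the largest mean ratio per role. Nodal, Bhlhe40 and the collagens were picked after their values were seen. So were the sharing of signs with fibroblast and astrocyte markers and the marker slopes set beside those of Smad4 and Tgfb2. No other annotated gene overlapped the exons of a member. Exon lengths and positions are from GENCODE vM1 on NCBIM37, the build of the files.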

Additional observations from a re-analysis of the deposited data

Results flagged for a closer look

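The difference between the lines changed over the course, by the slope of the ratio on day, in 2 of the 10 genes. Of all 13322 genes 1914 were called in either direction, 7.71% rising and 6.66% falling. The call of Tgfb2 was lost in 8 of 9 fits that left out a day, with day 6 kept (adjusted p = 0.240) and with log2(day + 1) (adjusted p = 0.0723). Smad4 rose by 0.060 per day, from -0.32 on day 0 to 0.39 on day 14, and Tgfb2 had a slope of -0.070 per day, from 1.33 to 0.06. Oligodendrocyte markers also changed over the course, as 6 of 8 had a slope of the ratio that rose. Their median ratio did not climb evenly: for days 0, 3, 4 and 14 it was -1.08, 3.34, -0.59 and 4.42. Slopes fell for 3 of 7 neuron markers (Snap25, Stmn2 and Nefl) and 2 of 12 fibroblast markers (Lum and Thy1). None of these 2 lists rose. In each other marker list at most 1 rose and at most 1 fell. The marker lists were set beside the slopes after the values were seen. The part of any such cells in the Smad4 or Tgfb2 slope was not tested. No day of any member lay far enough from its other 9 days to pass Dixon's test for 10 values, which chance passes in about 1 of 20 groups.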

How the results depend on the processing

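Pairing by day mattered for the calls of Tgfb1 and Tgfb3: with no replicate block 3 of 10 members differed between the lines, Tgfb2, Tgfbr1 and Smad2, and 5594 of all genes. The other alternatives gave 4 or 5 members. Tgfbr1 and Smad2 passed under each alternative run, Tgfb2 under each too, Tgfb1 under each but the unpaired fit and the stricter filter, which leaves it out, and Tgfb3 lost its call in 7. Among all genes 7028 differed and 4565 did under the filter of 8, which tests fewer genes. A call of a slope was less secure. Of the ratio, 1 member passed with day 6 kept and 1 with log2(day + 1), and 1 to 2 without single days. In the control line 2 passed under the filter of 8 and 2 with one size factor per library, an alternative chosen after seeing the data, and 1 to 2 without single days. In the knockdown line 1 passed without a filter, 0 with day 6 kept and 0 with log2(day + 1), by limma, where 4 members had an unadjusted p under 0.05 in both, and 0 to 2 passed without single days. There 3 passed, with Smad7 added, under the filter of 8, eBayes with trend and robust, median centring, the other path between days and one size factor. The causes were not tested.

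Signs turned only in values that had passed no test. With day 6 kept the mean ratios of Smad3 and Smad7 were -0.024 and 0.065. Without single days the mean ratio was -0.138 to 0.119 for Tgfbr2 (0.023, 0.059 and 0.045 without days 2, 10 and 12), -0.189 to 0.052 for Tgfbr3 and -0.186 to 0.072 for Smad7, and the slope of the ratio was -0.067 to 0.009 for Tgfb3. The slope of the ratio of Tgfbr1 was 0.003 with log2(day + 1). Slopes in the control line without single days were -0.013 to 0.054 for Tgfb1, -0.049 to 0.006 for Tgfb2 and -0.016 to 0.008 for Tgfbr1, and with one size factor per library 0.004 for Tgfb2 and 0.002 for Tgfbr1. The slope of Smad3 in the knockdown line was -0.015 to 0.003 without single days, 0.001 when centred on the median gene and 0.000 with one size factor. Through the knockdown steps and same-day tables alone, recovered reads were within 0.05 reads for all 9 genes. These tables were among the 27 used, and the path started from the recovered count of 1 library. It therefore cannot check the scale of the reads.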
